A study of Mus musculus with 4 samples.

Results

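Collagen genes were examined in livers of adult mice that lacked *Rap1* and of wild-type mice. They were defined as the mouse genes whose symbol has the form Col, number, a, number, and were found on the arrays through the RefSeq accession that each probe carries. The arrays named 42 of the 44 collagen genes listed by RefSeq, through 61 of 55681 probes, out of 19752 named genes in all. *Col6a3* and *Col12a1* had no probe named by its accession, and 14 genes had more than 1 probe. Where a gene had several, the probe with the highest mean intensity stood for it.

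Liver RNA was compared on 4 Agilent 2-colour arrays, each carrying *Rap1* -/- and wild-type liver RNA in different dyes. The labels do not state how many animals gave each RNA, or whether each array had its own wild-type liver. The *Rap1* -/- RNA carried Cy5 in replicates 1, 2 and 3 and Cy3 on a dye-swapped array, called the swap array here. The labels number the swap array 1, and it was taken as a repeat of replicate 1, leaving n = 3 pairs. Both genotypes were C57BL6/129SV (90%:10%) mice of 30 weeks by the labels, which give no sex, and the paper describes females. For its liver transcriptome of older females the paper gives another age. It places them at the onset of obesity, with a higher mean body weight in the *Rap1*-deficient mice. The knockout was a germline, whole-body loss made with *EIIa-cre*, so every liver cell type of the *Rap1* -/- animals lacked the gene and all other organs did too.

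Collagens are triple-helical proteins of the extracellular matrix, built from chains that carry glycine at each step of a repeat. Fibrillar collagens (types I, III and V) form the fibres that thicken in a scarred liver and come mainly from stellate cells and portal fibroblasts, whereas type IV forms the network of basement membranes. Chains are hydroxylated and folded in the endoplasmic reticulum, trimmed and crosslinked outside the cell, and removed by matrix metalloproteinases, which TIMP proteins inhibit. RAP1, the product of *Terf2ip*, is a shelterin protein found at the TTAGGG repeats of telomeres and at sites elsewhere in the genome.

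The ratios below are log2 of *Rap1*-deficient over wild-type intensity, normalized within each array, and the sign of the swap array was turned. Differences were tested with limma over the 3 pairs, with Benjamini-Hochberg adjustment over the 27513 probes detected in 1 or both genotypes, meaning well above background on all 4 arrays, at an FDR under 0.15, and each fold change is given with its standard error (SE). The *Terf2ip* probe A_52_P381806 had ratios of -1.74, -1.92 and -1.91 in replicates 1, 2 and 3 and -1.68 on the swap array. It was well above background on 4 wild-type and on 0 *Rap1*-deficient arrays and was at least 3.33-fold lower (adjusted p = 0.00859), where the bound sets the wild-type mean against the lowest detectable signal of each array and may carry dye bias. A second *Terf2ip* probe, A_55_P2094079, had a log2 ratio of 0.96 (adjusted p = 0.0329), and where it lies relative to the deleted sequence was not stated. Replicates 1, 2 and 3 correlated at r = 0.643 to 0.847 across probes, which are not independent, while the swap array correlated with them at -0.243 to -0.288 after its sign was turned. The ratios thus ran partly in opposite directions once the dyes were exchanged, and the value of the swap array is given beside most results. Pairs 2 and 3 had the *Rap1* -/- RNA in Cy5 only, and the test over the 3 pairs has no dye term. In these pairs genotype and dye cannot be told apart, so a call of higher or lower may hold dye bias. All 4 arrays lay on 1 slide, and their small number limits the precision.

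Of the 42 collagen genes, 19 were bright enough to be tested, each of them detected on all 4 arrays in both genotypes. They comprised 6 of 11 fibrillar genes, 5 of 6 basement membrane genes, 2 of 5 beaded filament genes, 4 of 8 genes of the FACIT group that decorate fibrils, *Col7a1* of anchoring fibrils and *Col18a1*, 1 of 2 multiplexins. None of the 3 short-chain network genes or the 4 transmembrane collagen genes was tested. Among the 23 untested genes, 14 were well above background on 0 arrays in both genotypes and 9 on 1 to 3 arrays in at least 1 genotype. *Col5a2*, the partner chain of *Col5a1*, was above background on 0 wild-type arrays and 1 *Rap1*-deficient array, and *Col15a1*, a multiplexin of basement membrane zones, on 1 array of each genotype. The ratios of the untested genes on single arrays lay between -0.48 and 0.48 and cannot be read as levels.

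Among the 19 tested collagens, 5 were higher in *Rap1*-deficient liver, 2 were lower and 12 did not pass the test. The higher genes were *Col1a2*, *Col5a3*, *Col4a2*, *Col27a1* and *Col16a1*, and the lower genes were *Col4a4* and *Col4a6*. The higher genes were 26.3% of the collagens, where 20.8% of all tested probes were higher, and the lower genes were 10.5%, where 13.7% of all probes were lower. These shares lay near the background, so the count of calls did not set the collagens apart. With a dye term fitted over the 4 arrays, *Col5a3* was the 1 collagen that passed, as higher, against 4.61% of all probes higher and 2.09% lower. That fit treats the 4 arrays as separate, although the swap array repeats replicate 1. In it the swap array weighs as much as the 3 replicates together, so its p-values do not rest on the same replication as the main fit. When the swap array was counted as a separate replicate, 0 collagens passed by limma, against 0.0981% of all probes called higher and 0.204% lower.

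The sign of the ratio was positive in 14 of the 19 genes, and the median log2 fold change was 0.22, against 0.00489 over all 13167 tested named genes. The collagen median was -0.04 in replicate 1, 0.07 in replicate 2, 0.29 in replicate 3 and 0.21 on the swap array. It was thus near 0 in replicates 1 and 2 and positive in replicate 3 and on the swap array. The number of collagens with a ratio above 0 was 9, 10, 16 and 14 of 19 on the same arrays, where 48.9%, 47.6%, 50.6% and 51.6% of all named genes were above 0. Without replicate 3 the median of the fold changes was 0.07. *Col1a2*, *Col5a3*, *Col27a1* and *Col6a2* were higher on all 4 arrays, which is 21.1% of the collagens and 10.6% of all probes. None was lower on all 4, where 10.9% of all probes were.

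**Figure D1:**
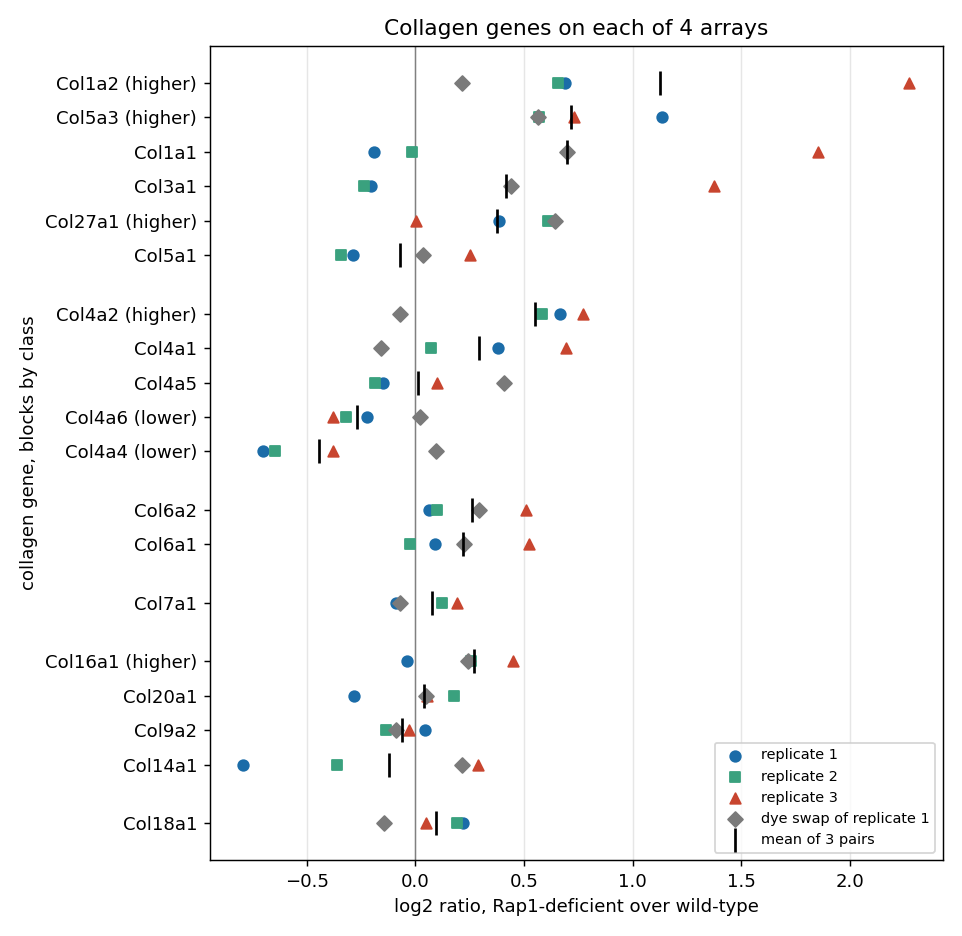
Log2 ratio of *Rap1*-deficient over wild-type liver for the 19 tested collagen genes, in blocks from fibrillar (top) through basement membrane, beaded filament, anchoring fibril and FACIT to multiplexin (bottom). Symbols are single arrays, the black tick is the mean of 3 pairs, and the words in parentheses mark genes that passed at an FDR under 0.15; the triangles of replicate 3 stand apart for *Col1a1*, *Col1a2* and *Col3a1*, at 1.85, 2.27 and 1.37.

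The fibrillar genes had a median log2 fold change of 0.56, with 3 of 6 higher (50%, against 20.8% of all probes) and 0 lower. Their median was 0.34 without replicate 3, and 1 of the 6 passed with the dye term. *Col5a3*, which encodes a chain of the type V collagen that helps start fibrils, gave ratios of 1.13, 0.57 and 0.73 in replicates 1, 2 and 3 and 0.57 on the swap array. Its log2 intensity was 8.74 to 9.02 in the 4 wild-type channels and 9.31 to 9.98 in the *Rap1*-deficient channels. All 4 arrays agreed in sign, where 10.6% of all probes were higher on all 4, and the swap array repeats replicate 1. *Col5a3* was higher by 0.72 log2 units (SE 0.09, adjusted p = 0.0402 by limma), and by 0.69 with the dye term (adjusted p = 0.0833). The call was lost when the swap array was counted separately (adjusted p = 0.189) and without replicate 2 (adjusted p = 0.267), and its log2 fold change was between 0.62 and 0.90 under the 13 other settings.

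*Col1a2*, the second chain of type I collagen, gave ratios of 0.69, 0.66 and 2.27 in replicates 1, 2 and 3 and 0.21 on the swap array. Its wild-type log2 intensity was 9.18, 9.24 and 9.21 in the 3 replicates and 9.50 on the swap array, and its *Rap1*-deficient intensity was 9.87, 9.89, 11.48 and 9.71. The gene was thus higher on every array, with the *Rap1*-deficient channel of replicate 3 far above the others and the wild-type channels close together. *Col1a2* rose by 1.13 (SE 0.36, adjusted p = 0.0951), the largest log2 fold change of the 19 collagens. It was 0.55 without replicate 3 (adjusted p = 0.116) and did not pass with the dye term (0.71, adjusted p = 0.337), with the swap array counted separately (adjusted p = 0.238) or without replicate 2 (adjusted p = 0.317).

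*Col1a1*, the main chain of type I collagen, had ratios of -0.19, -0.01 and 1.85 in replicates 1, 2 and 3 and 0.70 on the swap array. Its log2 intensity in the *Rap1*-deficient channel was 8.21 and 8.27 in replicates 1 and 2, 8.66 on the swap array and 10.42 in replicate 3, while the wild-type channels lay between 7.96 and 8.57. The *Rap1*-deficient values of replicates 1 and 2 lay inside the wild-type range, and the log2 fold change of 0.70 (SE 0.36, adjusted p = 0.231) did not pass. *Col3a1*, the chain of type III collagen, which is laid down with type I, had ratios of -0.20, -0.23, 1.37 and, on the swap array, 0.44. Its log2 fold change was 0.42 (SE 0.30, adjusted p = 0.373). Without replicate 3 the log2 fold change was 0.12 for *Col1a1* and -0.06 for *Col3a1*. The 2 arrays of replicate 1 differed in sign for both genes.

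**Figure D2:**
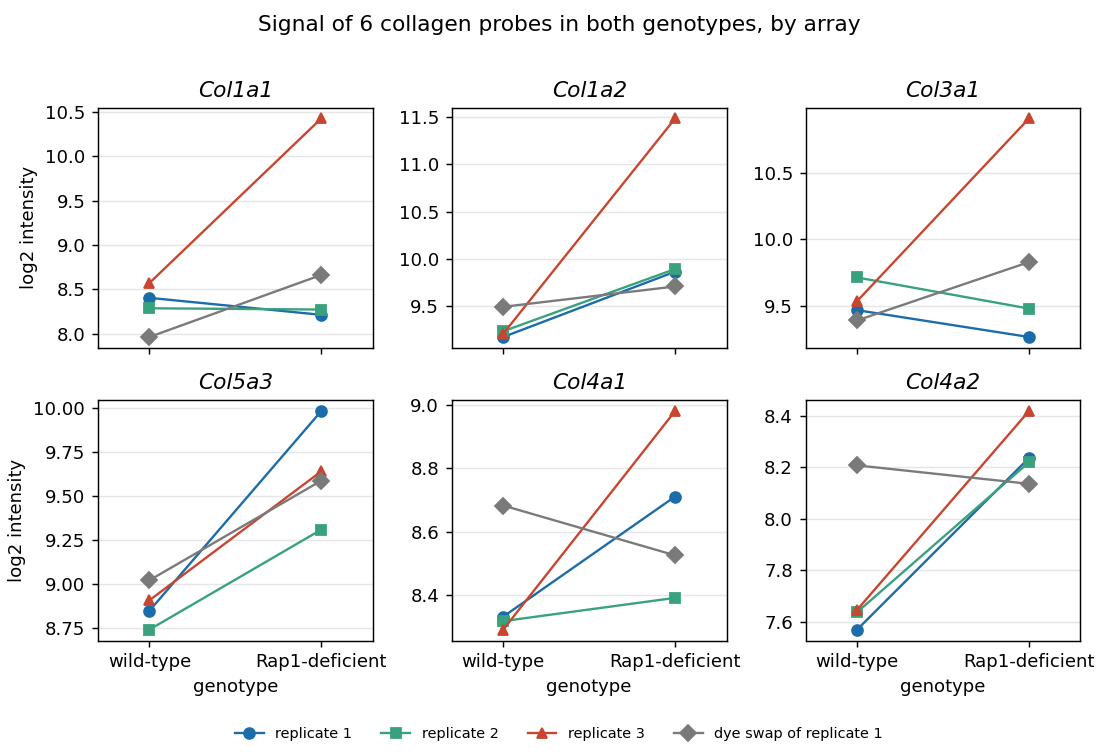
Normalized log2 intensity of 6 collagen probes in the wild-type and the *Rap1*-deficient channel of each array, 1 line per array; each panel has its own vertical axis, which does not start at 0. The *Rap1*-deficient liver of replicate 3 was highest for *Col1a1*, *Col1a2* and *Col3a1*, the lines of *Col5a3* all run upward, and those of *Col4a1* and *Col4a2* run downward on the swap array.

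In replicate 3 the ratio of *Col1a1* exceeded the higher of replicates 1 and 2 by 1.87, that of *Col1a2* by 1.58 and that of *Col3a1* by 1.58 on the log2 scale. By the size of this gap they ranked 62, 109 and 110 of the 27513 tested probes, of which 412 (1.5%) had a gap over 1. The third replicate was the highest of the 3 in 13 of 19 collagens and in 34.8% of all probes. Replicate 3 is 1 pair of RNA samples, so these values describe that pair, and how many animals it stands for is not stated.

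*Col27a1*, a fibrillar collagen of cartilage, had ratios of 0.38, 0.61 and 0.00 in replicates 1, 2 and 3 and 0.64 on the swap array. It was higher by 0.38 (SE 0.14, adjusted p = 0.128), and this call was lost in 6 of 13 other settings, with an adjusted p of 0.152 with the dye term and up to 0.518 without replicate 2. *Col5a1*, which encodes another type V chain, had ratios of -0.28, -0.34, 0.25 and 0.04 and a log2 fold change of -0.07 (SE 0.13, adjusted p = 0.732). *Col5a1* and *Col5a3* thus had different signs in replicates 1 and 2, and the difference between these genes was not tested.

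The basement membrane genes had a median log2 fold change of 0.01, with 1 higher, 2 lower and 2 that did not pass. *Col4a1* and *Col4a2* encode the chains of the common type IV network and are transcribed in opposite directions from a shared promoter. *Col4a2* gave ratios of 0.67, 0.58 and 0.77 in replicates 1, 2 and 3 and -0.07 on the swap array. It was higher by 0.55 (SE 0.12, adjusted p = 0.0481), and the adjusted p was 0.152 with the dye term, 0.238 with the swap array counted separately, 0.159 without replicate 3 and 0.308 without replicate 2. *Col4a1* gave 0.38, 0.07 and 0.69 in the replicates and -0.16 on the swap array, with a log2 fold change of 0.29 (SE 0.15, adjusted p = 0.216), and it passed without the swap array (adjusted p = 0.0702). Both genes of the pair were positive in the 3 replicates and slightly negative after the dyes were exchanged.

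*Col4a3* and *Col4a4* form another opposed pair, known from the kidney filter. *Col4a3* was well above background on 0 arrays. *Col4a4* had 3 probes. The brightest, A_55_P2143832, gave -0.70, -0.65 and -0.38 in the replicates and 0.09 on the swap array, and was lower, with a log2 fold change of -0.44 (SE 0.10, adjusted p = 0.0545). A second, A_55_P2143837, gave 0.07, 0.23, 0.34 and -0.25, with a log2 fold change of 0.16 (adjusted p = 0.349). This dimmer probe was above background on 3 wild-type and 4 *Rap1*-deficient arrays, so that it could be tested through the genotype where it was higher. The third was above background on 0 arrays. The 2 measured *Col4a4* probes thus differed in direction on every array. With all tested probes of *Col4a4* averaged, its log2 fold change was -0.14 (adjusted p = 0.317), and with the dye term the brightest probe did not pass (adjusted p = 0.271), nor without replicate 2 (0.347) or replicate 3 (0.152).

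In the third pair, on the X chromosome, *Col4a6* had ratios of -0.22, -0.32 and -0.38 in the replicates and 0.02 on the swap array. *Col4a6* was lower at -0.27 (SE 0.09, adjusted p = 0.119), a call lost in 5 of 13 other settings. Its adjusted p was 0.403 with the dye term and 0.394 without replicate 3. A second *Col4a6* probe had the opposite sign, with 0.26, 0.17, 0.11 and, on the swap array, 0.15. It was above background on 0 wild-type arrays and 1 *Rap1*-deficient array, was not tested and cannot be read as a level. *Col4a5* had -0.15, -0.19, 0.10 and, on the swap array, 0.41, with a log2 fold change of 0.01 (adjusted p = 0.933). When the arrays were centred on their median in place of loess, neither *Col4a4* nor *Col4a6* passed as lower (adjusted p = 0.217 and 0.668). That scaling moved the median of all probes up by 0.15, and the collagen median then lay 0.24 above it, against 0.19 in the loess values.

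Sequences around the transcription start, from 250 bases before to 50 after it, are shown for the 3 higher genes with the smallest adjusted p, for the partner of *Col4a2* in its pair, and for the lower gene *Col4a4*. They come from RefSeq, build GRCm38.p6, read 5′ to 3′ on the strand of each gene. Capitals mark CCAAT or its reverse complement, a motif of many promoters, in the first 4, and TTAGGG in *Col4a4*. The *Col1a2* window is chr6:4505368-4505667, plus strand, the *Col5a3* window chr9:20815018-20815317, minus strand, the *Col4a1* window chr8:11312777-11313076, minus strand, the *Col4a2* window chr8:11312555-11312854, plus strand, and the *Col4a4* window chr1:82586800-82587099, minus strand.
Col1a2: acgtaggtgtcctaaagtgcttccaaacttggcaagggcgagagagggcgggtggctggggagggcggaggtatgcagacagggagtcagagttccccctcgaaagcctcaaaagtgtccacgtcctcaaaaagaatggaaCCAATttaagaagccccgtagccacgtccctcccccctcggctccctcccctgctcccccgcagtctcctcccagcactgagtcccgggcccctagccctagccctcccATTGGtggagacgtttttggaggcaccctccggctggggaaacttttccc
Col5a3: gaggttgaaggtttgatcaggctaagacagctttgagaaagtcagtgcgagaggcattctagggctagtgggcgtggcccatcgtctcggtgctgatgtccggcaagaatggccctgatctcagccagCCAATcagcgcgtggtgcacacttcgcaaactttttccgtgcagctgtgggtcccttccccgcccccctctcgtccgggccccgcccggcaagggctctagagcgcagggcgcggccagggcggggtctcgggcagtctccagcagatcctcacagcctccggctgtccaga
Col4a1: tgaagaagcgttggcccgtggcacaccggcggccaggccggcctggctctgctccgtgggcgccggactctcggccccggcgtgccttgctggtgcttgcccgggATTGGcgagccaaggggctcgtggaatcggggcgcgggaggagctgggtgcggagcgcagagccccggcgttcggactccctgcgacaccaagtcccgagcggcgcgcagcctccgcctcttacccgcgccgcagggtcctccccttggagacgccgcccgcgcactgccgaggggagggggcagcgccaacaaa
Col4a2: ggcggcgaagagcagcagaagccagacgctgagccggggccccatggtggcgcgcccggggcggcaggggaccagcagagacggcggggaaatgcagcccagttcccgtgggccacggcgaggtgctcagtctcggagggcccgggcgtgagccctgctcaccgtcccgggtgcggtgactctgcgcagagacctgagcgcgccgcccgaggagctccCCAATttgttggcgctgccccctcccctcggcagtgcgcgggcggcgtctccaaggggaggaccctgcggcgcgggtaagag
Col4a4: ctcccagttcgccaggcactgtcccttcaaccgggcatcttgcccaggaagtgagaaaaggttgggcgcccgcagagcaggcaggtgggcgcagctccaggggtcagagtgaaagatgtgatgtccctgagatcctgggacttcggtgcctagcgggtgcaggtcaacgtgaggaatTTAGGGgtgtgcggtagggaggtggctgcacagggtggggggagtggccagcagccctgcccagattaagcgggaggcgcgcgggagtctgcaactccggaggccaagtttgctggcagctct
The *Col4a1* and *Col4a2* windows overlap by 78 bases. Promoter windows matched 34 collagen genes through 37 windows, and none was listed for *Col1a1* or *Col5a2*. Searched on both strands, CCAAT was found in 13 of the 37 collagen windows and in 37.4% of all 32851 windows, TATAAA in 5 and in 13.6%, and TTAGGG in 5 and in 10.6%. The collagens with TTAGGG were *Col4a4*, *Col7a1*, *Col11a1*, *Col25a1* and *Col6a5*, and the unit repeated directly occurred in 0 collagen windows and in 0.0122% of all. A match describes these letters in this window and is not a binding site.

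The beaded filament genes *Col6a1* and *Col6a2* encode chains of type VI collagen, which forms a fine network around cells. *Col6a2* had ratios of 0.06, 0.10, 0.51 and, on the swap array, 0.29, with a log2 fold change of 0.26 (SE 0.11, adjusted p = 0.161). *Col6a1* had 0.09, -0.03, 0.52 and 0.22, with a log2 fold change of 0.22 (SE 0.13, adjusted p = 0.276). Both were highest in replicate 3 and did not pass, except that *Col6a2* passed when arrays were centred on their median (adjusted p = 0.147).

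Among the fibril-associated genes, 1 of 4 was higher. *Col16a1* had ratios of -0.04, 0.26 and 0.45 in the replicates and 0.24 on the swap array. It was higher by 0.27 log2 units (SE 0.10, adjusted p = 0.129). It kept this call in 4 of 13 other settings, and its second tested probe had a log2 fold change of 0.06 (adjusted p = 0.731). *Col14a1*, which binds the surface of type I fibrils, was measured by 2 probes that differed in sign. The brighter had ratios of -0.79, -0.36, 0.29 and, on the swap array, 0.22 (log2 fold change -0.12, adjusted p = 0.595), and the other 0.08, 0.30, 0.63 and -0.18 (0.29, adjusted p = 0.213). Both probes of *Col14a1* were lowest in replicate 1 and highest in replicate 3 among the 3 replicates.

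*Col18a1*, the multiplexin whose C-terminal part is endostatin and which hepatocytes make, had ratios of 0.22, 0.19 and 0.05 in the replicates and -0.15 on the swap array. Its log2 fold change was 0.09 (SE 0.09, adjusted p = 0.476), and its second probe gave 0.02. *Col7a1* (0.08), *Col20a1* (0.04) and *Col9a2* (-0.06) did not pass either.

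The genes that make, trim, bind, remove and signal around collagen were counted from lists, with 1 probe per gene. Of 93 tested partner genes, 19 were higher and 11 lower, where 20.8% of all probes were higher and 13.7% lower. With the dye term 8 were higher and 7 lower, where 4.61% and 2.09% of all probes were. The main counts thus lay near the share over all probes. The dye-term counts lay above it in both directions, and this difference was not tested. Folding and modifying enzymes split evenly, with 3 of 22 higher (13.6%), 3 lower (13.6%) and a median log2 fold change of 0.03. *P4hb*, the beta subunit of prolyl 4-hydroxylase, had ratios of 0.88, 0.55, 0.40 and, on the swap array, 0.40 and was higher (adjusted p = 0.0402). *Plod1*, a lysyl hydroxylase, had -0.16, -0.58, -0.40 and -0.51 and was lower (adjusted p = 0.047). These genes kept 1 sign on all 4 arrays but did not pass with the dye term (adjusted p = 0.116 and 0.123). *Ppib*, the prolyl isomerase cyclophilin B, had -1.19, -1.08 and -1.07 in the replicates but 0.25 on the swap array.

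Of 12 genes that trim and crosslink collagen outside the cell, 1 was higher, *Loxl2*, a lysyl oxidase (log2 fold change 0.23, adjusted p = 0.143), and 1 was lower, *Pcolce2*, an enhancer of procollagen processing (-0.24, adjusted p = 0.129). *Loxl2* had -0.12 and *Pcolce2* 0.14 on the swap array, and neither passed with the dye term (adjusted p = 0.586 and 0.565). *Adamts2*, which removes the N-terminal propeptide, had ratios of 0.13, 0.20, 0.83 and, on the swap array, -0.03 and did not pass (adjusted p = 0.187). The list's median was 0.01.

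Small leucine-rich proteoglycans and other fibril partners had 3 of 14 higher (21.4%), 2 lower and a median of 0.11. *Hspg2*, the basement membrane proteoglycan perlecan, had ratios of 1.10, 1.14 and 1.18 in the replicates and 0.15 on the swap array. It was higher by 0.98 (adjusted p = 0.0402, and 0.0408 with the dye term). *Fbln2*, a fibulin of elastic fibres, had -0.61, -0.47, -0.70 and -0.31 and was lower (adjusted p = 0.0402). *Bgn*, biglycan, changed sign between the dye orientations, with 2.42, 2.45 and 2.15 in the replicates and -0.76 on the swap array (higher, adjusted p = 0.0402).

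In the degradation list 6 of 12 were higher (50%), against 20.8% of all probes, 1 was lower and the median was 0.23. *Timp2*, an inhibitor of metalloproteinases, had ratios of 0.74, 0.60 and 0.81 in the replicates and 0.58 on the swap array. It was higher by 0.69 (adjusted p = 0.0402, and 0.0472 with the dye term). *Timp3*, another inhibitor, had 0.47, 0.64, 0.58 and 0.17 (adjusted p = 0.0432, and 0.112 with the dye term). *Mmp14*, a membrane metalloproteinase that cleaves fibrillar collagen, had 1.04, 0.67 and 0.74 in the replicates but -0.27 on the swap array. *Ctsl*, cathepsin L, was lower (-0.46, adjusted p = 0.0483), with -0.05 on the swap array. With the dye term, 2 of the 12 were higher and 1 was lower, where 4.61% and 2.09% of all probes were. The list's median on the swap array was -0.02. The higher members held both inhibitors and proteases, and 1 of them, *Mmp2*, named after its values were seen, was above background on 2 wild-type and 4 *Rap1*-deficient arrays, so that it could be tested through the genotype where it was higher.

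Of 9 tested collagen receptors, 2 were higher (22.2%) and 1 was lower (11.1%), against 20.8% and 13.7% of all probes. *Itga1* and *Itgb1*, the chains of a collagen-binding integrin, had log2 fold changes of 0.83 and 0.58 (adjusted p = 0.0417 and 0.0415), with -0.11 and -0.04 on the swap array. *Adgrg1*, an adhesion receptor for type III collagen, was lower (-0.34, adjusted p = 0.134), with 0.21 there. Of 24 TGF-beta and other profibrotic signalling genes, 4 were higher (16.7%) and 3 lower (12.5%), near the shares over all probes, with a median of 0.07. *Ltbp3*, which holds latent TGF-beta in the matrix, was higher (0.59, adjusted p = 0.0402), with 0.06 on the swap array and an adjusted p of 0.19 with the dye term. *Smad7*, the inhibitory SMAD, had -0.43, -0.75, -0.25 and, on the swap array, -0.71 and was lower (adjusted p = 0.0531, and 0.0891 with the dye term). *Smad4*, the shared SMAD, had -0.37, -0.35, -0.37 and -0.21 and was lower (adjusted p = 0.0595, and 0.144 with the dye term). With the dye term 1 of the 24 was higher and 2 were lower, where 4.61% and 2.09% of all probes were.

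Markers of the cells that could carry collagen RNA were read beside these genes. In whole liver, fewer cells of a type and less RNA per cell cannot be told apart. Over all tested probes, 20.8% were higher and 13.7% lower. Of 16 tested stellate cell markers, 2 were higher (12.5%), 2 were lower (12.5%) and the median was -0.01. *Lhx2* and *Hand2*, transcription factors of stellate cells, were lower (-0.54 and -0.38, adjusted p = 0.0403 and 0.0485), with 0.07 and -0.12 on the swap array. *Hgf*, a growth factor for hepatocytes, and *Cygb*, cytoglobin, were higher (0.31 and 0.40), with -0.15 and 0.05 there. With the dye term, 0 stellate cell markers passed by limma, with adjusted p = 0.169, 0.219, 0.444 and 0.531 for these 4 genes. The log2 of the summed intensity of the stellate list was 15.04 to 15.12 in wild-type and 14.90 to 15.05 in *Rap1*-deficient channels, and 14 of the 16 markers were above background on all 4 wild-type arrays and 16 on all 4 *Rap1*-deficient arrays. Of 7 tested myofibroblast markers, 2 were higher (28.6%) and 1 lower (14.3%). The log2 of the summed intensity of the myofibroblast list was 12.07 to 12.26 in wild-type and 12.33 to 13.10 in *Rap1*-deficient channels. Such sums cover every list gene with a probe, tested or not. The brightest members weigh most in them, and the sums were not tested. The median ratio of the tested myofibroblast markers was 0.29, 0.02 and 0.71 in the replicates and 0.24 on the swap array. *Tagln*, an actin-binding protein, was higher (0.68, adjusted p = 0.0402) and *Postn*, periostin, was lower (-0.88, adjusted p = 0.0402), with 0.18 and 0.13 on the swap array. Portal fibroblast markers had 3 of 9 higher (33.3%) and 1 lower (11.1%). *Dpt*, 1 of the 3, was above background on 1 wild-type and 4 *Rap1*-deficient arrays.

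**Figure D3:**
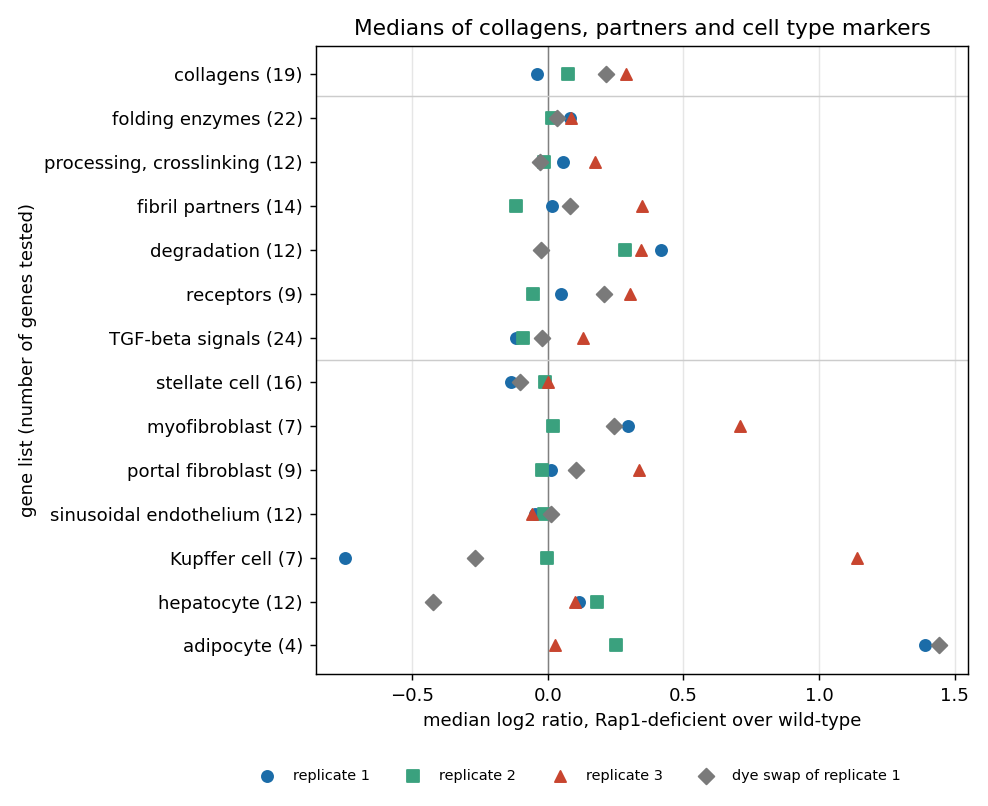
Median log2 ratio of *Rap1*-deficient over wild-type liver on each array for the tested collagens, 6 lists of collagen partners and 7 lists of cell type markers, with the number of tested genes in parentheses. In replicate 3 the Kupffer cell list stands at 1.14 and the myofibroblast list at 0.71, and both arrays of replicate 1 stand at 1.39 and 1.44 for the adipocyte list.

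Beside *Col1a1*, *Col1a2* and *Col3a1*, some marker genes were highest in replicate 3. All 7 Kupffer cell markers had their highest ratio of the replicates there, with a list median of -0.75, -0.00 and 1.14 in replicates 1, 2 and 3 and -0.27 on the swap array. *Csf1r*, a macrophage growth factor receptor, had -0.45, 0.38, 1.34 and -0.14, and *Adgre1*, a macrophage surface receptor, had -0.44, 0.13, 1.38 and -0.31. The log2 of the summed Kupffer list was 15.11 to 15.23 in wild-type channels and 14.49 to 16.30 in *Rap1*-deficient channels, so the *Rap1*-deficient channels spanned a wider range than the wild-type channels. Of the 7, *Vsig4*, a complement receptor, passed, as lower (-0.28, adjusted p = 0.118), with -1.05, -0.24 and -0.14 in the replicates and 0.13 on the swap array. The myofibroblast median was 0.29, 0.02 and 0.71 in the replicates and 0.24 on the swap array, and 4 of the 7 tested members were highest of the replicates in replicate 3. The stellate cell median was -0.13, -0.01 and 0.000237 in the replicates and -0.10 on the swap array. Genes named after their values were seen include *Vim*, vimentin (-0.10, -0.04, 1.66 and 0.29), *Ccn2*, a matrix protein that TGF-beta induces (-0.36, -0.32, 1.28 and 0.23), and *Timp1*, an inhibitor of metalloproteinases (-0.12, -0.14, 1.63 and 0.12), which was above background on 3 arrays of each genotype and was not tested. *Acta2*, smooth muscle actin, another myofibroblast marker named after its values were seen, did not share this pattern, with 0.29, 0.18 and -0.05 in the replicates and 0.24 on the swap array. *Vim*, *Ccn2* and *Timp1*, like *Col1a1* and *Col3a1*, were near or below 0 in replicates 1 and 2 and high in replicate 3. The part of these cells in the collagen ratios of replicate 3 was not tested.

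Adipocyte markers were high in both arrays of replicate 1, with medians of 1.39 in replicate 1 and 1.44 on its swap array, against 0.25 and 0.03 in replicates 2 and 3. These medians rest on 4 tested genes. Among them, *Retn* was above background on 3 wild-type and 4 *Rap1*-deficient arrays. It could thus be tested through the genotype where it was higher. *Cfd*, adipsin, had 2.35, 0.40 and -1.12 in the replicates and 2.28 on the swap array, and *Cidec*, a lipid droplet protein also made by fatty hepatocytes, had 1.53, 0.43, 0.24 and 1.16. *Adipoq*, named after its values were seen, had 1.73 and 1.85 on the arrays of replicate 1 and was above background on 0 wild-type and 3 *Rap1*-deficient arrays. The collagen median was -0.04 and 0.21 on these 2 arrays, and the part of such cells in it was not tested.

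The tissue label was checked on hepatocyte markers, with all 12 above background on every array in both genotypes. Of these, 2 were higher (16.7%) and 1 lower (8.33%), and the medians were 0.11, 0.18, 0.10 and, on the swap array, -0.42. *Alb*, albumin, had a log2 fold change of 0.54 (adjusted p = 0.0485) with -0.53 on the swap array. Sinusoidal endothelial markers had 2 of 12 higher (16.7%) and 2 lower (16.7%), against 20.8% and 13.7% of all probes. Vascular endothelial markers had 3 of 7 higher (42.9%) and smooth muscle markers 1 of 5 (20%). Cholangiocyte markers had 2 of 5 higher (40%) and mesothelial markers 2 of 4 (50%). The 2 mesothelial genes were *Krt8* and *Wt1*, with -0.25 and 0.40 on the swap array. None was lower in these last 4 lists, which are too short to set that apart from the share over all probes. Of 2 tested pancreatic acinar markers, none passed by limma at an FDR under 0.15.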

How the data were processed

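The authors deposited Agilent Feature Extraction scans (version 10.7.3.1 by the file headers, where the paper names another version) with spot and local background intensities of both dyes, processed intensities and the log10 ratio of Cy5 over Cy3. The deposited value table holds log2 ratios per probe, with a median of -0.0119, -0.0157 and -0.0203 in the columns of replicates 1, 2 and 3 and 0.000826 in that of the dye swap, whose sign was found already turned; the submitters' processing notes credit limma. Its scale and centring are not stated in the sources used here. RNA integrity numbers were 6.6 to 8.7, not split by genotype.

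Median intensities were corrected by normexp (offset 50) and normalized by loess within arrays, with control spots at weight 0. Spots of a probe without an outlier flag were averaged, 5 probes were lost to flags and no spot was saturated. The dye swap was turned in sign and averaged with replicate 1. Tests were limited to probes with a share of 0.5 or more of their spots well above background on all 4 arrays of 1 or both genotypes, which kept 27513 of 55681 probes (49.4%). Per channel, 50.1% to 56.4% of spots were above background by that flag. Of all probes, 26056 (46.8%) were named by accession through RefSeq (GRCm38.p6) and 29625 were not. limma 3.58.1 in R 4.3.3 fitted an intercept over 3 pairs (lmFit, eBayes), with Benjamini-Hochberg adjustment over all tested probes at the study's FDR of 0.15. At that FDR the paper reports fewer deregulated probes in liver of older females than passed here, and the reason was not tested. Intensities per genotype come from quantile normalization of the mean channel intensities after loess. Nothing in the labels says more of the 3 pairs than that they are biological replicates. In a simulation of 27513 probes with 100 changed by each size, the fit recovered 70% of log2 changes of 1 and 90% of changes of 2, with 14 false calls, without dye bias.

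The collagen genes, the gene lists and the tests were chosen with earlier results of these data known. Genes were named by a rule: *Terf2ip*, 14 collagens known from liver, every other collagen that passed, the 3 largest and 3 smallest log2 ratios among tested collagens, collagens whose probes differ in direction among those that passed, and, in every other list, at most 4 members by smallest p. Alternatives changed the treatment of the dye swap, the background correction, the scaling, the filter, the probe choice and the values used, and left out each replicate. Collagen protein sequences were not used here, and the values of 1 list member are not reported here.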

Additional observations from a re-analysis of the deposited data

Results flagged for a closer look

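Of 87 probes examined, those of the tested collagens, *Terf2ip* and the list members named by the rule, 12 had 1 array far from the other 3 by Dixon's criterion, and in all 12 it was the swap array. No collagen was among them. Chance alone marks about 1 in 20 unselected groups of 4. The list members were picked by smallest p from these same arrays, so 12 of 87 cannot be read against that share. The 4 arrays are not 4 independent samples, since the swap array repeats replicate 1. The ratio on the swap array was 0.25 for *Ppib* (the other 3 arrays -1.19 to -1.07), 0.14 for *Pcolce2* (-0.36 to -0.30), -0.052 for *Ctsl* (-0.59 to -0.51), 0.26 for *Adgrg6* (-0.30 to -0.27) and 0.17 for *Fcgr2b* (-0.81 to -0.64). It was -0.21 for *Smad4* (-0.37 to -0.35). Among genes that were higher in the replicates it was 0.15 for *Hspg2* (1.10 to 1.18), -0.76 for *Bgn* (2.15 to 2.45), -0.11 for *Itga1* (0.91 to 1.09), -0.35 for *Kdr* (1.42 to 1.72), -0.70 for *Trf* (0.72 to 0.97) and -0.25 for *Krt8* (0.98 to 1.11).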

How the results depend on the processing

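No alternative turned the direction of any of the 7 collagens that passed. The main counts were 5 collagens higher and 2 lower, 19 and 11 of 93 partner genes, and 7 and 4 of 31 stellate cell, myofibroblast and portal fibroblast markers. The dye term gave 1 and 0 collagens, 8 and 7 partner genes and 1 and 2 markers, and counting the swap array separately gave 0 and 0, 1 and 0, and 0 and 0. Without the swap array, 7 markers were lower. Leaving out each replicate gave 0 to 4 collagens higher and 0 to 2 lower, 0 to 28 partner genes higher and 0 to 15 lower, and 0 to 5 markers higher and 0 to 4 lower. The zeros came without replicate 2, where 1 probe of all tested was higher and 6 were lower, except that no collagen was lower without replicate 3 either, where 3 collagens were higher. The collagen median was 0.065 to 0.26 in these fits. Median centring gave 0 collagens and 3 partner genes lower and a collagen median of 0.41. It shifted the median of all probes by 0.15 and made 87.7% of all calls higher, against 60.3% in the main values, 49.3% from Agilent's processed signals and 45.3% from the authors' value table. That table gave 3 collagens higher, 17 partner genes lower, 2 markers higher and a collagen median of 0.10. With no filter on dim probes 3 markers were higher, and with the mean over all tested probes of a gene 1 collagen was lower. The cause of these changes was not tested. Over all tested probes, the calls were 5717 higher and 3771 lower, 1268 and 576 with the dye term, 27 and 56 on counting that array separately, 8119 and 6377 without it, 1902 and 830 without replicate 3, 5676 and 796 by median centring and 4830 and 4961 from the processed signals. Slide or scan as a block was not run, since all 4 arrays share 1 slide and 1 scan. The number of arrays and the signal over background limit what can be seen, and 23 of 42 collagens were too dim to test.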
